A study of Homo sapiens with 6 samples.

Results

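Integrins are cell-surface receptors made of an alpha and a beta chain, and laminins are basement membrane proteins made of an alpha, a beta and a gamma chain. The genes described here are the 17 integrin alpha, 8 integrin beta and 10 laminin chain genes that could be named from a single-gene probe set, 35 of 18417 genes in all. They were chosen by gene symbol alone (ITGA genes, ITGB1 to ITGB8, and LAMA, LAMB and LAMC genes), and each of the 35 had 1 such probe set. The probe set for ITGA1 also carries the name of another gene and was left out, and laminin chains with no single-gene probe set in the annotation table were not analysed here. The symbol rule used no value of the arrays, but the members were chosen with earlier results of these data known.

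RNA was measured on Affymetrix arrays in A549 cells, a human lung adenocarcinoma line. The compared groups were stable cells labelled H2AX knockdown (named P1 by the submitters, 3 arrays) and control stable cells (named C, 3 arrays). Both had been starved of serum overnight and then given VP-16 (etoposide) for 48 h. Etoposide is an inhibitor of topoisomerase II that leaves DNA double-strand breaks. The dose was not used here, and no untreated cells were analysed here. The labels do not say how many stable lines stand behind a group, so the tests measure the spread between experiments.

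In epithelial cells integrins tie the actin or keratin skeleton to the matrix, and they signal through kinases at adhesion sites. Chains pair selectively: ITGB1 takes many alpha partners, ITGAV takes several beta partners, and ITGB4 pairs with ITGA6 alone, in hemidesmosomes, where the pair binds laminin. Laminin trimers are assembled inside the cell before secretion, so that chains are needed together. The arrays measure RNA and not the assembled proteins.

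All values are deposited log2 signals made with RMA, a method that corrects background, normalizes arrays and summarises the probes of a set. Signals of different probe sets are not on one scale of abundance, so no gene's level is set against another's. Differences are knockdown-labelled minus control from limma, a linear model with shared variance fitted over all 18417 genes, with Benjamini-Hochberg adjusted p and a threshold of 0.05. Members whose mean over the 6 arrays was at or above the median of all genes, 3.80, are called bright (17 members), and the other 18 dim. The values hold no background measure, so no gene was called absent. With 3 arrays a group, the number of arrays limits how small a difference can be resolved.

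The targeted gene did not show the label. H2AX had 5.28, 5.17 and 5.49 in knockdown-labelled replicates 1, 2 and 3, against 5.11, 5.27 and 5.26 in the controls. The difference was 0.10 (limma adjusted p = 0.823; 2-sided exact permutation test, p = 0.4, where 0.1 is the smallest possible), and its 95% bounds were −0.25 and 0.45. Over the 14 alternatives it lay between 0.0101 (without knockdown-labelled replicate 3) and 0.28 (cyclic loess). Every difference below therefore belongs to the label and not to a measured loss of H2AX. The array of knockdown-labelled replicate 1 stood apart: among all bright genes it was the lowest array for 45.3%, and control replicate 1 was the highest for 41.8%. The median difference was −0.14 over all bright genes and 0.09 over all dim genes. For that reason each member's difference is also given beside the median difference of the 500 genes nearest to it in mean signal. Of 8 epithelial markers, KRT8, KRT18, KRT7, CDH1 and KRT19 were bright, while EPCAM lay between 2.46 and 2.72 in knockdown-labelled arrays and between 2.28 and 2.52 in controls.

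No integrin or laminin gene passed the threshold. Of all genes, 6 did, or 0.0326% of those tested (0.00543% higher and 0.0271% lower). The smallest adjusted p among the 35 members was 0.357, for ITGA4. At an unadjusted p under 0.05 in limma, 2 members were higher (ITGA4 and ITGB4) and 1 was lower (ITGAV), or 8.57% of members, against 12.2% of all genes (3.78% higher and 8.38% lower). The groups did not overlap for 4 members, or 11.4%, against 17.0% of all genes (7.17% with knockdown-labelled arrays above and 9.82% below). These were ITGA4, ITGA2B and LAMA2, with knockdown-labelled arrays above controls, and LAMB3, with knockdown-labelled arrays below. Both shares lay below that of all genes, so neither count sets the members apart.

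The intervals bound the difference in signal that the arrays could have missed. For all 35 members the 95% interval of the difference, not adjusted for the number of genes, lay within 1 log2 unit of 0 on either side, as it did for 96.0% of all genes. The lowest bound was −0.90, for ITGAV, and the highest was 0.83, for ITGA4. A 2-fold or larger difference in signal thus lay outside the interval of each member. Only for ITGAV, ITGA4 and ITGB4 did the unadjusted interval leave out 0, and none of them passed after adjustment. These bounds hold for signal and not for RNA. Without a background measure it is not known how closely the signal of dim members follows their RNA. The median SE of a member was 0.18.

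**Figure D1:**
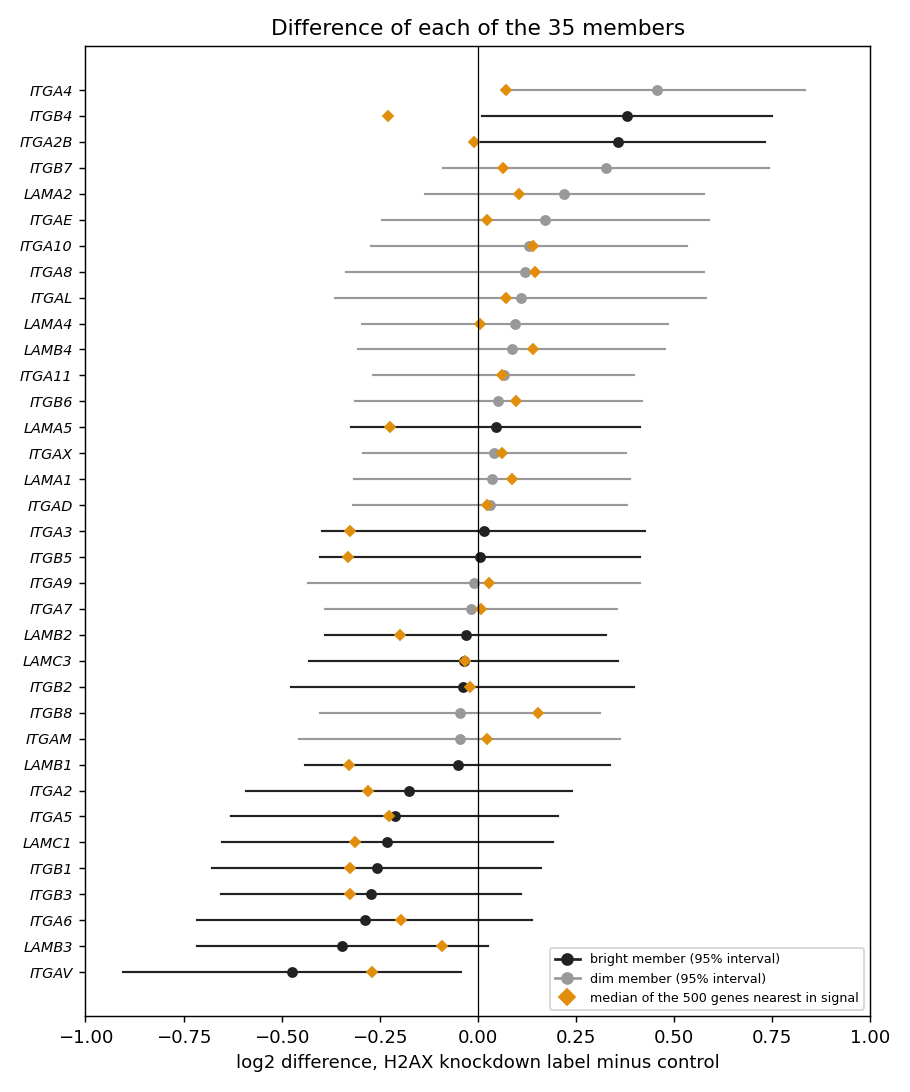
Log2 difference (knockdown-labelled minus control) of each of the 35 members on the horizontal axis, with its 95% interval, black for bright and grey for dim members. Orange diamonds give the median difference of the 500 genes nearest in mean signal. Every interval stays within 1 log2 unit of 0, and ITGB4 at 0.38 lies farthest from its diamond, at −0.23.

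As in other genes, the differences were mostly below 0 in bright members and above 0 in dim ones. Of the 35 members 16 were below 0, with a median of 0.01, against 51.5% of all genes, with a median of −0.01. Among the 17 bright members 12 were below 0 (70.6%, median −0.05), against 71.4% of all bright genes (median −0.14). Among the 18 dim members 4 were below 0 (22.2%, median 0.08), against 31.5% of all dim genes (median 0.09). Relative to genes of like signal, 20 of the 35 members lay above and 15 below, with a median of 0.01. Of the 17 bright members 12 lay above and 5 below, with a median of 0.08. The 18 dim members had 8 above and 10 below.

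**Figure D2:**
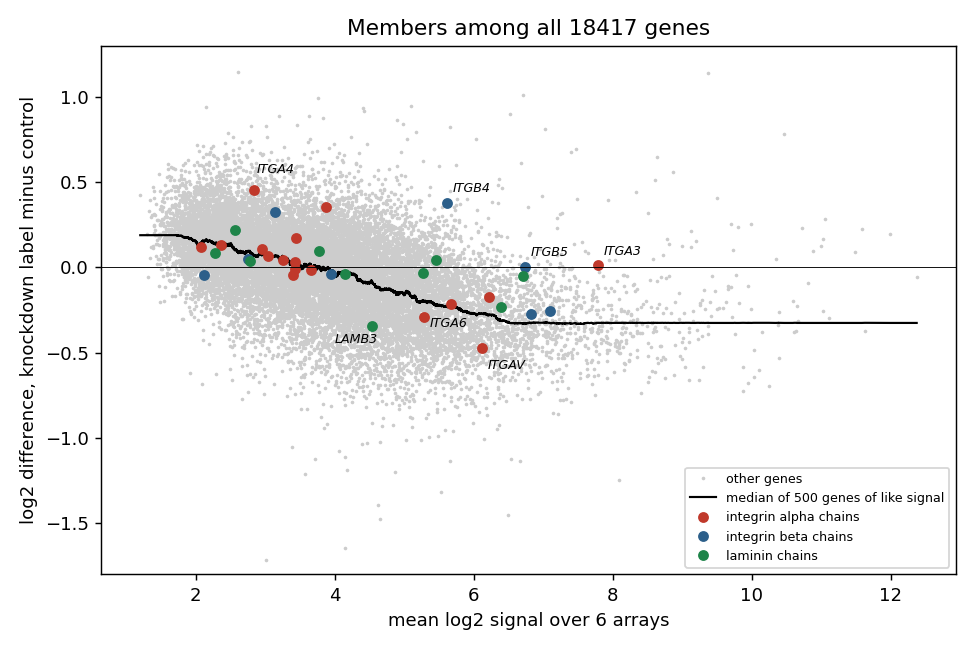
Mean log2 signal over 6 arrays (horizontal) against the log2 difference, knockdown-labelled minus control (vertical), for all 18417 genes in grey and the members in colour. The black line, the median of the 500 genes nearest in signal (the outermost 500 at either end), slopes downwards, and the members scatter around it, with ITGB4, ITGB5 and ITGA3 above it and ITGAV and LAMB3 below.

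Replicate 1 of either group stood at an end of the range for many bright members. Knockdown-labelled replicate 1 was the lowest array for 11 of the 17 bright members and control replicate 1 the highest for 7. Measured from each gene's own mean, the median bright member was at −0.33, 0.07 and 0.12 in knockdown-labelled replicates 1, 2 and 3, against 0.16, −0.04 and 0.01 in control replicates 1, 2 and 3. The medians of knockdown-labelled replicates 2 and 3 thus lay within the range of the controls. For the 18 dim members the same medians were 0.14, −0.07 and 0.05 in knockdown-labelled arrays, against −0.14, 0.08 and −0.03 in controls, so the array that was low for bright members was high for dim ones. Whether this array pattern accounts for single differences was not tested beyond leaving each array out.

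**Figure D3:**
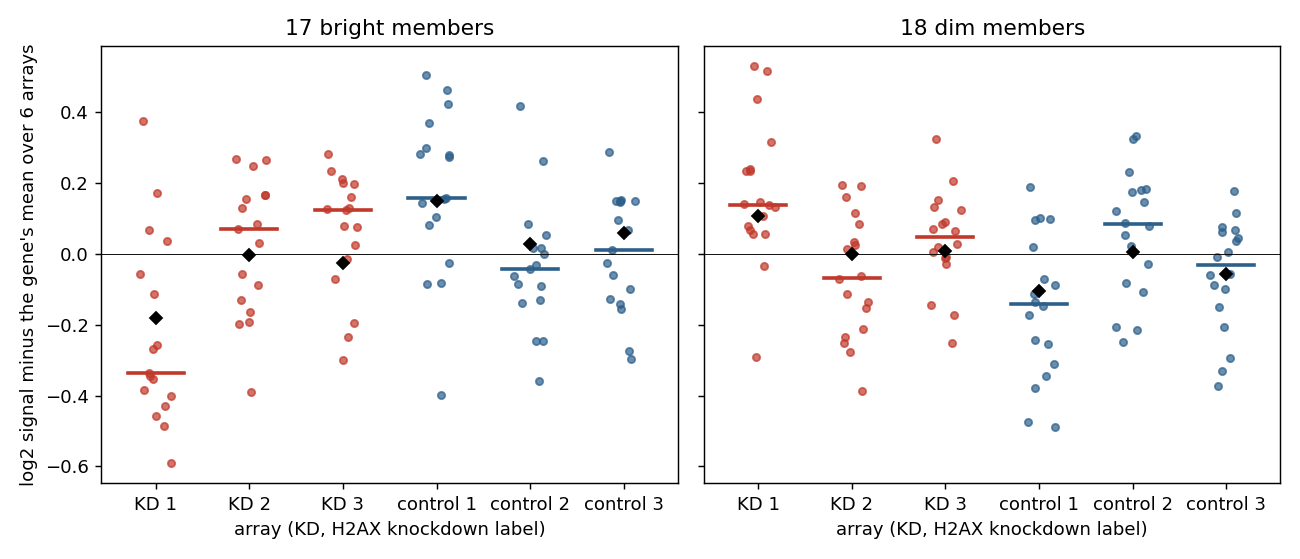
Log2 signal minus the gene's own mean over 6 arrays (vertical), 1 point per member, for each array (KD marks the knockdown-labelled arrays), with bright members on the left and dim members on the right. Coloured bars are the members' medians and black diamonds those of all bright or all dim genes. Knockdown-labelled replicate 1 sits at −0.33 for bright and 0.14 for dim members.

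Upstream sequence was available for 24 of the 35 members in RefSeq (GRCh38.p14), at the first-listed start of each gene. In the 250 bases before the start, on both strands, the GC box of Sp1 (GGGCGG) was present in 12 of the 24, against 42.3% of 27305 genes. The AP-1 motif (TGANTCA) was present in 0 of 24, against 6.6% of genes, an NF-kB motif (GGGA, any base, TT, any base, CC) in 1, LAMC1, against 1.27%, and the TATA box (TATAAA) in 1, ITGA6, against 11.1%. The motifs were chosen with earlier results of these arrays known, and a match describes letters and not a site in use. The sequences of the receptor chain ITGA6 and of the ligand chains LAMB3 and LAMC1 are shown because they differ in these motifs, while ITGB4 had no entry. Capitals mark the motifs on either strand, which do not overlap each other here: a TATA box in ITGA6 (chr2:172427086-172427335, + strand), a GC box in LAMB3 (chr1:209652426-209652675, − strand), and 3 GC boxes and the NF-kB motif in LAMC1 (chr1:183023170-183023419, + strand).
ITGA6: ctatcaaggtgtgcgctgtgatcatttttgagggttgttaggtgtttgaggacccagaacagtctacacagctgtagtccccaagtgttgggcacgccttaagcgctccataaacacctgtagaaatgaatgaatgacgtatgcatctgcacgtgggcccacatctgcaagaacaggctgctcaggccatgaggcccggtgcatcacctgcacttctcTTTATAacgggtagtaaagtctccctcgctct
LAMB3: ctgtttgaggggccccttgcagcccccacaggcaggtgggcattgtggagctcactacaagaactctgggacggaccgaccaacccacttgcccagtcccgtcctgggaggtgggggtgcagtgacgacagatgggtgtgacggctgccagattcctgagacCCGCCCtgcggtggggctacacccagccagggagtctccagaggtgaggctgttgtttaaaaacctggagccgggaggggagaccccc
LAMC1: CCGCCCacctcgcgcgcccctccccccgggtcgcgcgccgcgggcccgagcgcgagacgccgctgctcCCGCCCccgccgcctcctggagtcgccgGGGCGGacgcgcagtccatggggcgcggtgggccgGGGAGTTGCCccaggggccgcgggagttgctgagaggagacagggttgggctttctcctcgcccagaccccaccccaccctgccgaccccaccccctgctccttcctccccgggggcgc
The GC content of these stretches was 50.8% for ITGA6, 64% for LAMB3 and 79.6% for LAMC1, against a median of 58% over all genes.

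The laminin-binding integrins include a pair of chains whose values went opposite ways. ITGB4, the beta chain of the hemidesmosome receptor (probe set 8009951, Entrez gene 3691), had 5.68, 5.88 and 5.85 in knockdown-labelled replicates 1, 2 and 3, against 5.70, 5.26 and 5.32 in the controls. Only control replicate 1 reached the level of the knockdown-labelled arrays. The difference was 0.38 ± 0.171 (SE, n = 3 each; limma adjusted p = 0.403), beside −0.23 for genes of like signal. With each array left out it ran from 0.30 (without control replicate 2) to 0.52 (without control replicate 1), and it was 0.60 after cyclic loess. The adjusted p in limma was 0.386 to 0.928 in these leave-outs.

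ITGA6, the alpha chain of the same receptor (probe set 8046380, Entrez gene 3655), went the other way in its values. It had 4.85, 5.12 and 5.44 in knockdown-labelled arrays, against 5.70, 5.14 and 5.43 in controls, so the groups overlapped. The difference was −0.29 ± 0.198 (SE, n = 3 each; limma adjusted p = 0.562), beside −0.20 for genes of like signal. It was −0.15 without knockdown-labelled replicate 1 and −0.15 without control replicate 1, against −0.44 without knockdown-labelled replicate 3, and −0.11 after cyclic loess normalization. ITGA3, the alpha chain of the other main epithelial laminin receptor, had 7.44, 7.95 and 7.98 in knockdown-labelled arrays and 7.94, 7.54 and 7.85 in controls. Its difference was 0.01, beside −0.33 for genes of like signal, and it was −0.0343 with array medians subtracted, 0.25 after quantile normalization and 0.28 after cyclic loess. ITGA7, a laminin receptor chain of muscle, was dim, with a difference of −0.02.

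Subunits can be compared within an array, where a shift of equal size in both chains cancels. The shift between arrays varied with signal here, so it need not cancel for chains of unlike signal. Over 23 known integrin pairs with both chains measured, the log2 signal of the beta chain minus that of the alpha chain did not overlap between groups for 4 pairs, all of them among the 9 pairs with both chains bright. That is 17.4% of the 23 pairs, against 16.6% of all pairs of genes, so the count does not set integrin pairs apart. Among pairs with both genes bright it is 44.4% of 9, against 15.4% of all such pairs, but 3 of these 4 share ITGAV. This comparison was chosen after the values were seen, and several pairs share a chain. Relative to the control mean, ITGB4 minus ITGA6 was 0.83, 0.77 and 0.41 in knockdown-labelled replicates 1, 2 and 3, against 0.00, 0.11 and −0.11 in the controls. All 3 knockdown-labelled arrays were above all 3 controls. The difference was 0.67 (2-sided exact permutation test, p = 0.1, the smallest that 3 against 3 arrays allow), and it ran from 0.59 to 0.80 when each array was left out in turn. A difference of this kind lies between 2 probe sets and does not show which of them moved.

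The remaining 3 pairs without overlap all held ITGAV as the alpha chain, so they are not independent. Relative to the control mean, ITGB5 minus ITGAV was 0.50, 0.57 and 0.38 in knockdown-labelled arrays, against −0.12, −0.06 and 0.18 in controls. The difference was 0.48 for ITGB5, 0.22 for ITGB1 and 0.20 for ITGB3 (exact permutation test, p = 0.1 each). By contrast ITGB1 minus ITGA6 differed by 0.03, with overlap (exact permutation test, p = 0.9). ITGB3 minus ITGA2B differed by −0.63, but its groups overlapped, with −1.09, −0.43 and −0.37 in knockdown-labelled arrays, against 0.38, −0.38 and −0.01 in controls. These 2 chains are of unlike signal: genes of like signal had a median difference of −0.33 for ITGB3 and −0.01 for ITGA2B.

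**Figure D4:**
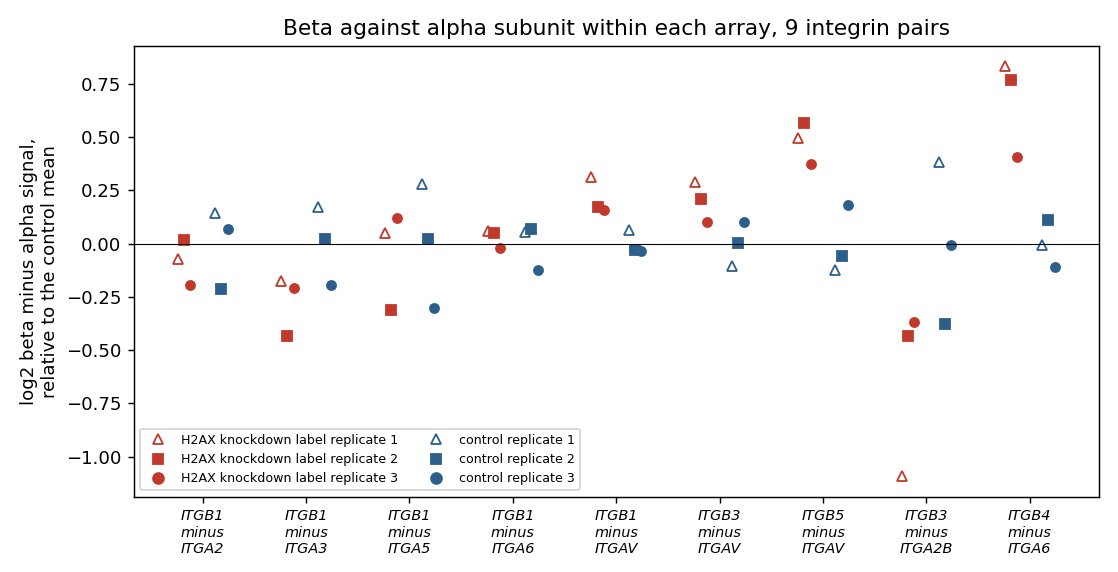
Log2 beta chain signal minus alpha chain signal in each array, set to 0 at the control mean (vertical), for the 9 pairs in which both chains were bright. Red symbols are knockdown-labelled arrays and blue symbols controls, with replicate 1 as open triangles, replicate 2 as squares and replicate 3 as circles. ITGB4 minus ITGA6, at the right, holds all 3 knockdown-labelled arrays at 0.41 or more and all 3 controls at 0.11 or less.

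ITGAV had the lowest difference of the members. It encodes the alpha chain of the vitronectin and fibronectin receptors that also activate latent TGF-beta (probe set 8046861, Entrez gene 3685). Its signal was 5.53, 5.92 and 6.20 in knockdown-labelled arrays, against 6.62, 6.17 and 6.27 in controls, with knockdown-labelled replicate 3 just inside the control range. The difference was −0.47 ± 0.199 (SE, n = 3 each; limma adjusted p = 0.379), beside −0.27 for genes of like signal. It was −0.30 without knockdown-labelled replicate 1 and −0.34 without control replicate 1 (limma adjusted p = 0.736 and 0.928).

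The bright beta partners of ITGAV and the fibronectin receptor chain ITGA5 lay near genes of like signal, except for ITGB5. ITGB1, the common beta chain, had 6.71, 6.96 and 7.22 in knockdown-labelled arrays and 7.56, 7.01 and 7.10 in controls, with a difference of −0.26 beside −0.32 for genes of like signal. ITGB3, the vitronectin receptor chain shared with platelets, had 6.42, 6.74 and 6.90 in knockdown-labelled arrays and 7.12, 6.78 and 6.98 in controls, a difference of −0.27 beside −0.33. ITGA5 had 5.21, 5.82 and 5.65 in knockdown-labelled arrays and 5.83, 5.54 and 5.96 in controls, a difference of −0.21 beside −0.23. In ITGB1 and ITGB3 the lowest array was knockdown-labelled replicate 1 and the highest control replicate 1, and in all 3 genes the groups overlapped. After cyclic loess normalization the 3 differences were 0.0211 for ITGB1, 0.0056 for ITGB3 and 0.0076 for ITGA5, so their sign depended on the scaling. With each array left out ITGB1 ran from −0.39 to −0.0914, ITGB3 from −0.38 to −0.14 and ITGA5 from −0.34 to −0.0359, nearest to 0 without control replicate 1 for ITGB1 and without knockdown-labelled replicate 1 for ITGB3 and ITGA5. ITGB5, an epithelial vitronectin receptor chain, had 6.41, 6.87 and 6.96 in knockdown-labelled arrays and 6.89, 6.50 and 6.84 in controls, with a difference of 0.005 (limma adjusted p = 0.993) beside −0.33. It was −0.0437 with array medians subtracted, 0.24 after quantile normalization and 0.28 after cyclic loess. Of the dim chains in these groups, ITGA9 differed by −0.01, ITGA8 by 0.12, ITGB6 by 0.05 and ITGB8 by −0.05.

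Among collagen receptor chains only ITGA2 was bright. ITGA2 had 5.86, 6.02 and 6.50 in knockdown-labelled arrays and 6.49, 6.30 and 6.12 in controls, and the groups overlapped. Its difference was −0.18 ± 0.192 (SE, n = 3 each; limma adjusted p = 0.729), beside −0.28 for genes of like signal, and 0.0421 after quantile normalization. It was −0.042 without knockdown-labelled replicate 1 and −0.36 without knockdown-labelled replicate 3. The dim chains ITGA10 and ITGA11 differed by 0.13 and 0.07.

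**Figure D5:**
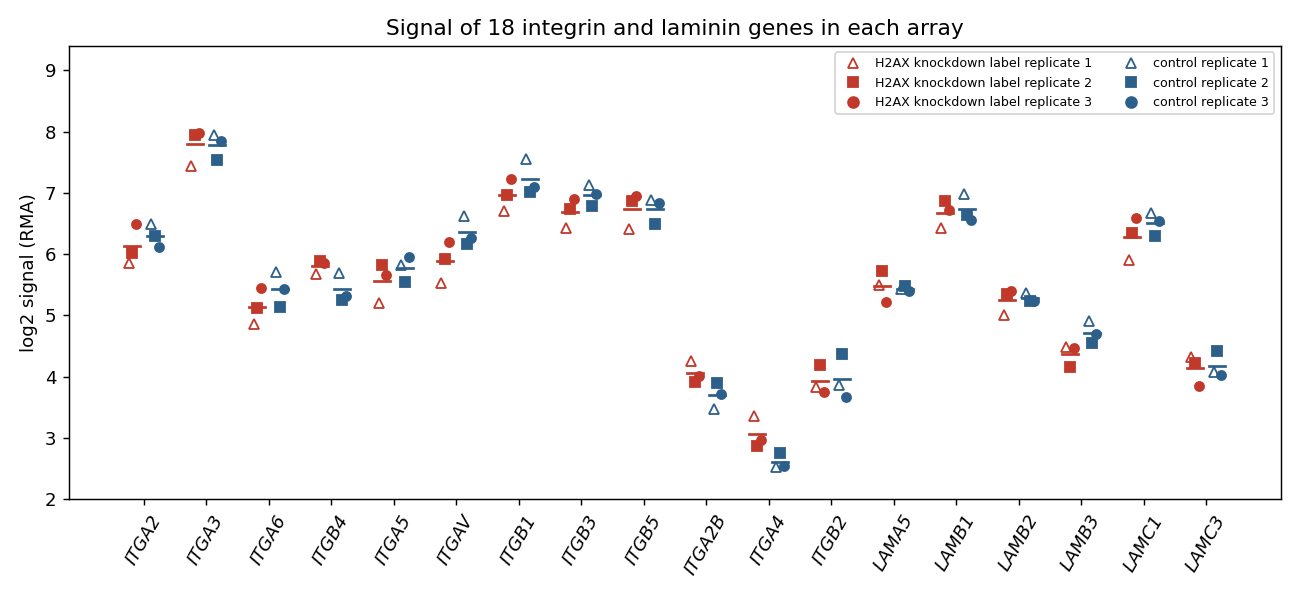
Log2 signal (vertical) in each array of the 17 bright members and of ITGA4, with knockdown-labelled arrays in red at the left of each gene and controls in blue at the right. Short bars are group means over 3 arrays, and signals of different genes are not comparable. The open triangles are replicate 1 of each group, the red one being the lowest array for 11 and the blue one the highest for 7 of the 17 bright members, and the groups separate only for ITGA2B, ITGA4 and LAMB3.

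Integrin chains known mainly from leukocytes and platelets were mostly dim and did not pass the test. ITGA4, a receptor chain for VCAM1 and fibronectin (probe set 8046695, Entrez gene 3676), had 3.35, 2.87 and 2.97 in knockdown-labelled arrays, against 2.52, 2.75 and 2.54 in controls. Every knockdown-labelled array was above every control. The difference was 0.46 ± 0.175 (SE, n = 3 each; limma adjusted p = 0.357), beside 0.07 for genes of like signal, and it was 0.31 without knockdown-labelled replicate 1 (limma adjusted p = 0.678). ITGB7, a beta partner of ITGA4 on lymphocytes, differed by 0.33, with overlap between the groups.

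The other 6 chains of the leukocyte group, ITGAL, ITGAM, ITGAX, ITGAD, ITGAE and ITGB2, differed by −0.05 to 0.17. ITGB2, their common beta chain apart from ITGAE, had 3.83, 4.20 and 3.75 in knockdown-labelled arrays and 3.86, 4.36 and 3.67 in controls. Of 11 leukocyte markers 10 were above 0 (9.09% below, against 51.5% of all genes), with a median of 0.12. Relative to genes of like signal 7 were above and 4 below, with a median of 0.06. LYZ, the 1 below 0, differed by −0.40 (limma adjusted p = 0.413). The average log2 signal of the markers per array was 3.21 to 3.48 in knockdown-labelled arrays and 3.10 to 3.34 in controls. PTPRC, which marks all leukocytes, was dim in each array, at 1.94 to 2.45 in knockdown-labelled arrays and 1.95 to 2.26 in controls. The part of these markers in the ITGA4 value was not tested. All arrays were of A549 cells, so the marker values are signals in that line and not counts of leukocytes.

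ITGA2B, the alpha chain of the platelet fibrinogen receptor (probe set 8016044, Entrez gene 3674), had 4.25, 3.91 and 4.01 in knockdown-labelled arrays, against 3.48, 3.89 and 3.72 in controls. The groups were separate by a narrow margin. The difference was 0.36 ± 0.173 (SE, n = 3 each; limma adjusted p = 0.426), or 0.26 without knockdown-labelled replicate 1 and 0.25 without control replicate 1. Of 5 platelet markers 4 were above 0 (20% below, against 51.5% of all genes). Their average log2 signal per array was 3.75 to 4.0 in knockdown-labelled arrays and 3.79 to 3.96 in controls, and GP9 differed by 0.03. PPBP, the 1 below 0, went the other way, by −0.44 (limma adjusted p = 0.385). It was at 4.05 to 4.49 in knockdown-labelled arrays and 4.53 to 5.04 in controls, without overlap. The part of these markers in the ITGA2B value was not tested.

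Among the laminin chains of epithelial basement membranes, 1 had separate groups. LAMB3 encodes the beta chain of laminin-332, the hemidesmosome ligand of the ITGA6 and ITGB4 pair (probe set 7924029, Entrez gene 3914). It had 4.49, 4.15 and 4.47 in knockdown-labelled arrays, against 4.91, 4.54 and 4.69 in controls, with every knockdown-labelled array below every control. The difference was −0.35 ± 0.172 (SE, n = 3 each; limma adjusted p = 0.438), beside −0.09 for genes of like signal. It was −0.40 without knockdown-labelled replicate 1, −0.24 without knockdown-labelled replicate 2 and −0.25 without control replicate 1.

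LAMA5, LAMB1, LAMB2 and LAMC1 are chains of the main trimers of epithelial basement membranes. None of the 4 passed the test. LAMA5 had 5.50, 5.72 and 5.22 in knockdown-labelled arrays and 5.44, 5.48 and 5.40 in controls. LAMB1 had 6.43, 6.87 and 6.73 in knockdown-labelled arrays and 6.98, 6.64 and 6.56 in controls. For both genes the groups overlapped, with differences of 0.04 and −0.05 beside −0.22 and −0.33 for genes of like signal. LAMB2 had 5.01, 5.35 and 5.39 in knockdown-labelled arrays and 5.37, 5.23 and 5.24 in controls, a difference of −0.03 beside −0.20. LAMC1, the gamma chain common to these trimers, had 5.91, 6.34 and 6.59 in knockdown-labelled arrays and 6.68, 6.30 and 6.55 in controls, a difference of −0.23 beside −0.31 (limma adjusted p = 0.645). LAMC1 was −0.045 without knockdown-labelled replicate 1 and −0.39 without knockdown-labelled replicate 3. LAMB1, LAMB2 and LAMC1 were at 0.22, 0.15 and 0.0366 after cyclic loess, and with array medians subtracted LAMA5 was at −0.0037. LAMA5 was the only one of the 4 whose lowest array was not knockdown-labelled replicate 1.

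The other laminin chains were dim, except LAMC3. LAMC3 had 4.32, 4.22 and 3.85 in knockdown-labelled arrays and 4.07, 4.42 and 4.03 in controls, a difference of −0.04. LAMA2, the alpha chain of muscle and nerve laminins, had a difference of 0.22, with the groups separate by a narrow margin (limma adjusted p = 0.597). LAMA1, LAMA4 and LAMB4 differed by 0.04, 0.09 and 0.09.

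Matrix ligands of integrins other than laminins and collagens held values above 0 as well as below. Of 14 measured genes 0 passed the threshold in limma, 3 were higher at an unadjusted p under 0.05 (all genes 3.78%) and 0 lower (all genes 8.38%), with a median of 0.01, or −0.04 with array medians subtracted and 0.08 after cyclic loess. NPNT, nephronectin, a ligand of the receptor of ITGA8 and ITGB1, had 3.84, 3.57 and 4.20 in knockdown-labelled arrays, against 2.93, 3.15 and 3.03 in controls, without overlap. The difference was 0.83 ± 0.183 (SE, n = 3 each; limma adjusted p = 0.192), it passed only with array weights (0.79, limma adjusted p = 0.0338), a setting that called 191 of all genes, and it ran from 0.67 to 0.98 when each array was left out. FN1, fibronectin, the ligand of ITGA5 and ITGAV receptors, had 8.97, 9.16 and 9.31 in knockdown-labelled arrays, against 8.69, 8.45 and 8.61 in controls. Its difference was 0.56 (limma adjusted p = 0.28), beside −0.33 for genes of like signal. POSTN, periostin, a ligand of ITGAV receptors, differed by 0.48, again without overlap (limma adjusted p = 0.31), and by 0.31 after quantile normalization. Fibroblast and mesenchymal markers were above 0 for 9 of 10 genes (10% below, against 51.5% of all genes). Relative to genes of like signal 9 were above and 1 below, with a median of 0.19. Their average log2 signal per array was 3.44 to 3.75 in knockdown-labelled arrays and 3.29 to 3.36 in controls. ACTA2, the 1 below 0, was bright and differed by −0.18 (limma adjusted p = 0.733), and COL1A1 differed by 0.04. LUM and DCN, picked after their values were seen, were dim, at 1.48 to 2.21 and 1.83 to 2.82 in knockdown-labelled arrays, against 1.36 to 1.54 and 1.72 to 1.85 in controls. Both were highest in knockdown-labelled replicate 1, and in both knockdown-labelled replicate 2 lay within the control range. The part of these markers in the values of FN1 and POSTN was not tested.

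Proteins that activate integrins or sit at adhesion sites were mostly below 0, as bright genes were in general. Of 28 measured genes 24 were bright, 23 were below 0, 0 passed the threshold in limma, and 3 had a lower signal at an unadjusted p under 0.05 (all genes 8.38%), with 0 higher (all genes 3.78%). Among all 9209 bright genes, 1375 were lower and 137 higher at that unadjusted p. The median was −0.17, or −0.04 relative to genes of like signal, and it was −0.0772 after quantile normalization and −0.0461 after cyclic loess. FERMT2, kindlin-2, which binds integrin beta tails, had 4.32, 4.45 and 4.58 in knockdown-labelled arrays, against 5.30, 4.90 and 4.87 in controls, without overlap. Its difference was −0.57 ± 0.173 (SE, n = 3 each; limma adjusted p = 0.289), beside −0.13 for genes of like signal. RSU1 and PARVA, partners in the complex around the pseudokinase ILK, both differed by −0.51 (RSU1 by −0.32 after quantile normalization and −0.28 after cyclic loess), and ILK itself differed by −0.43 (limma adjusted p = 0.334, 0.398 and 0.474). For ILK, knockdown-labelled replicate 1 had 5.29, against 6.30 and 6.09 in the other knockdown-labelled arrays and 6.12 to 6.50 in controls. TLN1, talin, and PTK2, focal adhesion kinase, differed by −0.03 and −0.23.

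Basement membrane components and laminin receptors other than integrins gave 0 of 17 genes past the threshold in limma, with 1 higher (all genes 3.78%) and 2 lower (all genes 8.38%) at an unadjusted p under 0.05. Of the 17 genes 12 were bright, and among all 9209 bright genes 1375 were lower and 137 higher at that unadjusted p. The median was −0.13, or −0.0372 relative to genes of like signal, and −0.0602 after cyclic loess. SDC2, a cell-surface heparan sulphate proteoglycan, had 3.40, 3.38 and 3.25 in knockdown-labelled arrays, against 2.76, 3.0 and 2.84 in controls, a difference of 0.48 (limma adjusted p = 0.305). SGCB and SGCE, sarcoglycans of the dystroglycan complex, differed by −0.50 and −0.46 (limma adjusted p = 0.34 and 0.374). SGCB was at −0.32 without control replicate 1 and −0.32 after cyclic loess. CD151, a tetraspanin bound to laminin receptors, and NID1, which links laminin to type IV collagen, differed by −0.32 and −0.14. Genes of like signal to CD151 had a median of −0.33.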

How the data were processed

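The deposited values are log2 signals of 33297 probe sets on 6 arrays, made by the authors with RMA, per the submitters' processing notes, which name no version. The log2 scale was taken from the values, 0.611 to 13.2. Groups came from the sample titles. Gene names came from the array platform's GEO annotation, parts of which may be dated: 19460 probe sets had 1 gene, 1754 several and 12083 none. Per gene the single-gene probe set with the highest mean was kept, giving 18417 genes.

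Differences were tested with limma 3.58.1 (R 4.3.3; lmFit, eBayes, no covariate, all 6 arrays), 2-sided, adjusted over all genes. The fit was also run on simulated arrays with independent noise per gene and no shift between arrays. That run cannot show how the fit behaves under the array shift seen here. Genes of like signal are the 250 on each side by rank of mean signal, or the outermost 500. Intervals are 95%. No list test was run.

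Members with bright signals or an unadjusted p under 0.05 are given array by array. From the other lists a few genes fixed by name and up to 3 per list with the smallest unadjusted p are given, and DAG1 was not analysed here. The members and lists were chosen with earlier results of these data known. The integrin pairs and the markers LUM and DCN were chosen after their values were seen. Figures used matplotlib 3.10.9.

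Alternatives were a replicate block, a signal filter, other normalizations, all probe sets averaged, an intensity trend, array weights and each array left out.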

Additional observations from a re-analysis of the deposited data

How the results depend on the processing

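No member passed the threshold in limma in any of the 14 alternatives, with 1 to 5 members at an unadjusted p under 0.05. That count was 3, and it became 5 with array weights, 1 with only genes at or above the median signal, and 1 to 4 with each array left out. The members' median difference of 0.01 became −0.0343 with array medians subtracted, −0.0513 with the signal filter, and −0.0074 to 0.0642 with each array left out. Over all genes the count of 6 became 191 with array weights, 16 with the signal filter, 3 with all probe sets averaged and 3 with the replicate block. It was 0 after quantile normalization and 0 after cyclic loess (1495 and 1511 genes at an unadjusted p under 0.05), and 0 to 9 with each array left out, with 0 (limma, 944 to 2296 genes at an unadjusted p under 0.05) in 4 of these.

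Of 251 values of single members under the alternatives, 218 kept their direction and 33 turned it, and none of them passed the threshold. The replicate block, the signal filter, the averaging of probe sets and the intensity trend leave a member's difference unchanged by construction. Only the other alternatives could turn a direction, so the 218 include values that were fixed in advance. After quantile normalization ITGA2 was at 0.0421, LAMB1 at 0.18 and LAMB2 at 0.11. After cyclic loess ITGA2 was at 0.0845, ITGA5 at 0.0076, ITGB1 at 0.0211, ITGB3 at 0.0056, LAMB1 at 0.22, LAMB2 at 0.15 and LAMC1 at 0.0366. With array medians subtracted ITGA3 was at −0.0343, ITGB5 at −0.0437 and LAMA5 at −0.0037. With array weights ITGB2 was at 0.23, LAMB1 at 0.13, LAMB2 at 0.0507 and LAMC3 at 0.050. With each array left out ITGA3 ran from −0.10 to 0.19, ITGB2 from −0.19 to 0.16, ITGB5 from −0.12 to 0.17, LAMA5 from −0.0768 to 0.17, LAMB1 from −0.15 to 0.0755, LAMB2 from −0.10 to 0.0893 and LAMC3 from −0.13 to 0.10. The cause of these turns was not tested. ITGA4, ITGAV, ITGB4, ITGA2B, ITGA6 and LAMB3 kept their sign in the alternatives that could turn it. These were the other normalizations, array weights and each array left out. After cyclic loess ITGAV shrank to −0.22 and ITGB4 grew to 0.60.

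The labels state no pairing of arrays by replicate number. Deviations of same-numbered arrays correlated at −0.31, −0.02 and 0.07, and those of differently numbered arrays at −0.39 to 0.37. Such values cannot settle whether arrays were paired, because array shifts also enter them. With the replicate block no member passed in limma and 2 had an unadjusted p under 0.05.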
